A study of Mus musculus with 24 samples.

Results

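Transcripts of hemoglobin and of the red cell's own enzymes and membrane proteins were followed in RNA of the developing mouse lens. The set comprised 9 genes by symbol: the embryonic globins Hbb-y, Hbb-bh1 and Hba-x, the adult globins Hba-a1, Hba-a2, Hbb-b1 and Hbb-b2, Alas2 and Slc4a1. A row under its symbol was used for 7 of the 9, out of 30705 genes; Hba-a1 and Hbb-b2 were not analysed here. Lenses of C57BL/6 mice were collected at embryonic days 15 and 18 (E15, E18) and at postnatal days 0, 3, 6 and 9 (P0, P3, P6, P9), and the labels name no treatment or altered allele. Each of the 6 stages had 2 biological replicates, called pool A and pool B here, of 8 to 9 pups each. Both an mRNA and a small-RNA library carry each stage and letter, which gave 12 libraries of each kind. The lenses were isolated with forceps, and nothing in the labels describes removal of blood or of surrounding vessels.

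Hemoglobin joins alpha-like and beta-like globin chains, each holding a heme. In the mouse embryo the primitive red cells of the yolk sac make the embryonic chains (Hba-x on the alpha side, Hbb-y and Hbb-bh1 on the beta side), and the definitive red cells that come later from fetal liver and marrow make the adult chains. The lens has no vessels of its own, but in the embryo and newborn it is wrapped by the hyaloid vessels, which regress after birth, so that globin mRNA in a lens preparation is commonly read as blood.

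Globin genes lie in clusters, with the beta-like genes on chromosome 7 and the alpha-like genes on chromosome 11. In the RefSeq annotation of GRCm38.p6 the beta cluster holds Hbb-y at chr7:103851754-103853207, Hbb-bh1 at chr7:103841638-103843162 and the adult gene Hbb-bs at chr7:103826523-103827928. Hba-x lies at chr11:32276600-32278116 and Hba-a2 at chr11:32296492-32297310. The heme enzyme gene Alas2 lies at chrX:150547417-150570622 and Slc4a1 at chr11:102348820-102365281. The deposited tables hold the adult beta chain in 2 rows, Hbb-b1 and Beta-s, the latter a RefSeq synonym of Hbb-bs. RefSeq places Hbb-b1 on a separate sequence and not on the chromosome 7 sequence, so no position is given for that row.

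The promoters of the globins whose levels separated between E15 and E18, and of Alas2, which moved with the adult globins, are shown so that their sequences can be compared. Each sequence is the 250 bases before the start site, 5′ to 3′ on the strand of the gene, from the RefSeq table for GRCm38.p6. Capitals mark GATAA (bound by GATA factors), CACCC (bound by KLF factors), CCAAT and TATAA on either strand; in Alas2 neighbouring or overlapping matches run together.
Hbb-y (chr7:103853208-103853457, minus strand): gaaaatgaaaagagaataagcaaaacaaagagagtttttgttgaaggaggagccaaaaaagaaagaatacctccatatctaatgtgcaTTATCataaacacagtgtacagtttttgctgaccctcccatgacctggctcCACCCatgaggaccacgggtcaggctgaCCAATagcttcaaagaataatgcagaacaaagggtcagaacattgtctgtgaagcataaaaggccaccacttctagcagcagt
Hba-x (chr11:32276350-32276599, plus strand): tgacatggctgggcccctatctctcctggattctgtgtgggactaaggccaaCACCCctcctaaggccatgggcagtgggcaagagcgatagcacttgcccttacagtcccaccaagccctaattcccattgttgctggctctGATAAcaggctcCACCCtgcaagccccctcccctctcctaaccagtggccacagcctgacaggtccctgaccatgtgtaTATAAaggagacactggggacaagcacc
Hba-a2 (chr11:32296242-32296491, plus strand): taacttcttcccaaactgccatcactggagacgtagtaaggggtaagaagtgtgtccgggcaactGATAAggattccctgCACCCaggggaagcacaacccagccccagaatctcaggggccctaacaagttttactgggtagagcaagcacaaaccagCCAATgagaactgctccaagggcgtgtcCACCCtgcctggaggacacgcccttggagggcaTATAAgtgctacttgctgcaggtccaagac
Hbb-bs (chr7:103827929-103828178, minus strand): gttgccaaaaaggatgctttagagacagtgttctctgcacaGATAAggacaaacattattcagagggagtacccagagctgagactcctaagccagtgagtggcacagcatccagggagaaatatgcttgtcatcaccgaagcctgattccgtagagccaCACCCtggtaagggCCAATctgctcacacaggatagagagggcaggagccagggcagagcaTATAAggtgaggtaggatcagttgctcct
Alas2 (chrX:150547167-150547416, plus strand): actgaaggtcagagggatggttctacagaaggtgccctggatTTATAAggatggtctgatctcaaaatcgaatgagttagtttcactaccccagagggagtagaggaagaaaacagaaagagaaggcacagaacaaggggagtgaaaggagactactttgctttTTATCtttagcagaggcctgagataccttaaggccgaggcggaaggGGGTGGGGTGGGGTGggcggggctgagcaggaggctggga

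Each of these 5 promoters had 1 GATAA match and at least 1 CACCC match. The same held for the promoters of the adult genes Hba-a1 and Hbb-bt, whereas 12.6% of all 32851 promoter windows (300 bases, with 50 bases after the start site) held both motifs. Singly, GATAA was present in 25.4% of windows, CACCC in 57.5%, CCAAT in 37.4% and TATAA in 24.9%. The GATAA match began at position -162 in Hbb-y, -107 in Hba-x, -185 in Hba-a2, -209 in Hbb-bs and -86 in Alas2, counted from the start site. TATAA had no match in the window of Hbb-y, and CCAAT none in those of Hba-x and Alas2. The promoters of Hba-a1 and Hba-a2 shared an identical run of 247 bases, against a longest shared run of 8 bases between Hbb-y and Hbb-bs and of 10 bases between Hba-x and Hba-a2. A letter match describes the sequence and does not show a bound site.

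Embryonic globin transcripts were abundant at E15 and nearly gone by E18. Hbb-y, the embryonic epsilon-y chain, stood at 293.7 and 285.3 RPKM (reads divided by transcript length and library size, the scale of the deposited mRNA values) in pools A and B at E15. At E18 it stood at 0.703 and 0.257 RPKM. In the 8 postnatal libraries it ranged from 0 to 0.315 RPKM, so both E15 pools were far above every later library. The E15 mean was 603 times the E18 mean, and Hbb-y fell by 7.63 ± 0.19 (SE) on the log2(RPKM + 1) scale (limma, adjusted p = 1.79e-08). Estimated reads behind these values were 4784 and 4329 at E15, 14.3 and 7.11 at E18 and at most 5.10 in any postnatal library. Hbb-y reached 1 RPKM in the E15 pools alone and entered the test through them, so its p-value is given no weight.

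Hba-x, the embryonic zeta chain and partner of Hbb-y on the alpha side, was at 40.6 and 30.1 RPKM at E15. It dropped to 0.207 and 0.265 RPKM at E18 and was listed at 0 in all 8 postnatal libraries, where a count of 0 allows up to 0.130 to 0.186 RPKM (3 reads per library, counting error only). The E15 mean was 150 times the E18 mean (limma, adjusted p = 1.73e-07), and the stages did not overlap. Hbb-bh1, the beta-h1 chain that comes before Hbb-y in yolk sac cells, was the least abundant embryonic globin, with 3.72 and 2.99 RPKM at E15. It was at 0.051 and 0.037 RPKM at E18, about 1 estimated read in each pool, and was listed at 0 after birth. Its E15 mean was 76.2 times its E18 mean (limma, adjusted p = 8.03e-05). Hba-x and Hbb-bh1 also entered the test through the E15 pools alone, so their p-values are given no weight. Fewer red cells of this kind and less of the RNA per cell cannot be told apart in these bulk libraries.

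**Figure D1:**
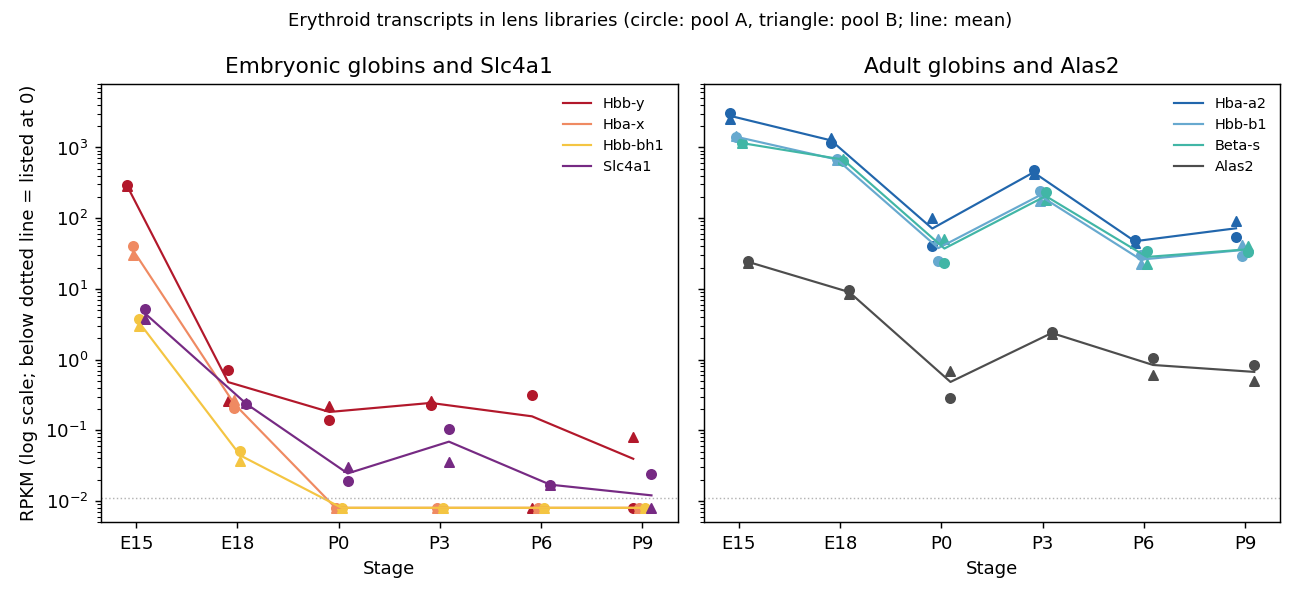
RPKM of each transcript on a log axis against stage, with a circle for pool A, a triangle for pool B and a line through the mean of the 2 pools; symbols below the dotted line were listed at 0. Embryonic globins and Slc4a1 (left) were highest at E15 and near 0 from E18 or P0 on, while adult globins and Alas2 (right) were lowest from P0 on, with a second, smaller level at P3.

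Adult globins stayed abundant through E18, fell at birth and came back in part at P3. Hba-a2, an adult alpha chain, was at 3079 and 2540 RPKM at E15 and at 1139 and 1382 RPKM at E18. At P0 it was at 41.05 and 101.6 RPKM, and at P3 at 473.4 and 416.1 RPKM. The P6 pools held 49.8 and 44.6 RPKM, and the P9 pools 53.7 and 90.2 RPKM. Both P3 pools lay above every other postnatal library and below both E18 pools. As a share of the E15 mean, Hba-a2 made 44.9% (E18), 2.54% (P0), 15.8% (P3), 1.68% (P6) and 2.56% (P9).

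Hbb-b1, an adult beta chain, kept close to that course. Its values were 1401 and 1442 RPKM at E15, 684.2 and 664.3 RPKM at E18, and 24.7 and 50.8 RPKM at P0. They were 242.4 and 176.5 RPKM at P3, 29.7 and 22.2 RPKM at P6, and 28.8 and 42.0 RPKM at P9. The P3 pools again exceeded the pools of P0, P6 and P9 without overlap, and the P6 and P9 pools overlapped. Beta-s, the other adult beta row, had 1159 and 1149 RPKM at E15, 650.4 and 697.5 RPKM at E18 and 233.7 and 177.9 RPKM at P3, and its 6 values at P0, P6 and P9 lay between 22.3 and 51.0 RPKM.

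Single adult copies are uncertain, because they share reads. Of the 50-base windows of the Hba-a2 transcript (GENCODE M21), 86.9% occurred unchanged in Hba-a1 and 96.8% matched it within 2 mismatches. For Hbb-bs against Hbb-bt the shares were 65.8% and 72.7%. The embryonic transcripts stood apart: no window of Hbb-y or Hba-x came within 2 mismatches of an adult globin, the closest having 4, and 0.177% of the windows of Hbb-bh1 did. The length of the deposited reads and the counting of reads on several copies are unstated in the sources used here, so the Hba-a2 row is read as adult alpha globin and the Hbb-b1 and Beta-s rows as adult beta globin.

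The composition of globin RNA changed between E15 and E18. Embryonic chains (Hbb-y and Hbb-bh1) made 10.2% ± 0.279 (SD, n = 2) of summed beta-like globin RPKM at E15 and 0.0390% ± 0.0247 at E18. On the alpha side, Hba-x made 1.24% ± 0.0922 at E15 and 0.0187% ± 0.000705 at E18. With Hbb-b1 as the only adult beta row, the beta share was 17.1% at E15 and 0.0772% at E18. Between these 2 stages Hbb-y went down 603-fold while adult Hba-a2 went down 2.23-fold and Hbb-b1 2.11-fold. After birth the beta share ranged from 0 to 0.490% and rested on at most 5.10 estimated reads of Hbb-y per library. Hba-x at 0 allows an alpha share of up to 0.0364% to 0.396% in those libraries.

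The balance of adult alpha to adult beta RPKM changed little between stages. Hba-a2 over the sum of Hbb-b1 and Beta-s was 1.09 ± 0.157 at E15 (SD, n = 2), 0.934 ± 0.114 by E18 and 0.926 ± 0.102 in the P0 pools. It was 1.08 ± 0.127 for P3, 0.890 ± 0.160 for P6 and 0.987 ± 0.161 for P9, so that the stage means differed by about the spread between pools. The level of this ratio depends on the rows summed, because adult copies share reads and Hba-a1 was not analysed. At E15 the mean of Hba-a2 was 2810 RPKM, beside 1422 RPKM for Hbb-b1 alone. All globin rows together took 1.22% ± 0.205 of summed RPKM at E15 and 0.587% ± 0.0392 by E18. In the P0 pools they took 0.0269% ± 0.0153, in the P3 pools 0.159% ± 0.0244, in the P6 pools 0.0167% ± 0.00299 and in the P9 pools 0.0229% ± 0.00677.

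**Figure D2:**
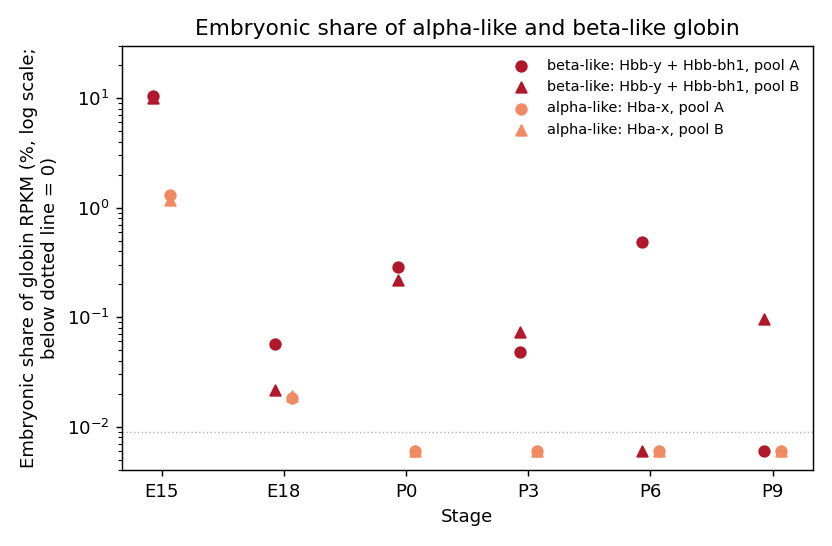
Embryonic globin as a percent of alpha-like (Hba-x) or beta-like (Hbb-y and Hbb-bh1) globin RPKM on a log axis against stage, with a circle for pool A and a triangle for pool B; symbols below the dotted line are at 0. The E15 pools lie at 10.01% to 10.4% for beta and 1.17% to 1.30% for alpha, above every later library.

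Alas2, the erythroid enzyme of the first step of heme synthesis, moved with the adult globins. It was at 24.7 and 23.6 RPKM at E15, 9.62 and 8.39 RPKM at E18, 0.283 and 0.682 RPKM at P0 and 2.45 and 2.31 RPKM at P3. At P6 it was at 1.06 and 0.613 RPKM and at P9 at 0.843 and 0.495 RPKM, with the pools of these 2 stages overlapping. The P3 pools again lay between the E18 pools and the remaining postnatal pools. Relative to 1000 RPKM of Hba-a2, Alas2 stood at 8.65, 7.26, 6.80 and 5.36 RPKM at E15, E18, P0 and P3, and at 17.6 and 10.6 RPKM at P6 and P9.

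Slc4a1, the anion exchanger (band 3) of the red cell membrane, was highest at E15 and low from E18 on. It stood at 5.22 and 3.73 RPKM at E15 and at 0.232 and 0.240 RPKM at E18, with 33.9 and 47.7 estimated reads. It was at 0.019 and 0.030 RPKM at P0, 0.103 and 0.035 RPKM at P3 and 0.017 RPKM in each P6 pool, so the P3 pools lay above those of P0 and P6, but on at most 9.89 estimated reads. No step after E18 passed (limma), except E18 to P0 at a pseudocount of 0.1 (adjusted p = 0.0442). Its E15 mean was 19.0 times its E18 mean, and it fell by 2.13 on the log2(RPKM + 1) scale (limma, adjusted p = 9.91e-05). Slc4a1 entered the test through the E15 pools alone, so this p-value is given no weight. Per 1000 RPKM of Hba-a2, Slc4a1 went from 1.58 ± 0.160 at E15 to 0.189 ± 0.0213 at E18 (SD, n = 2). At E18 the adult globin rows were still at 44.9% to 58.4% of their E15 means.

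Read over the whole course, each of the 7 transcripts measured varied with stage in the joint test (limma, adjusted p from 8.73e-09 for Hbb-y to 1.80e-05 for Hbb-bh1), as did 74.2% of the 14405 genes tested. Between E15 and P9 all 7 fell, in a comparison where 55.4% of genes fell and 8.65% rose. Hba-a2 fell by 5.31 ± 0.35 on the log2(RPKM + 1) scale (limma, adjusted p = 3.37e-06), Hbb-b1 fell by 5.31 ± 0.29 (adjusted p = 1.20e-06) and Alas2 fell by 3.92 ± 0.19 (adjusted p = 4.54e-07). The median gene fell by 0.542 on that scale. Much of the general decline depended on the scaling: after median-ratio rescaling 20.6% of genes fell and 21.2% rose, the median was -0.02, and the 7 were still called. Hbb-y, Hbb-bh1, Hba-x and Slc4a1 passed the low-value filter through the E15 pools alone. Their being called therefore adds nothing to the count, and their p-values are given no weight.

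From E15 to E18, 6 of the 7 were called lower (limma), in a step where 3.67% of genes fell and 5.48% rose; 4 of the 6 are the transcripts that entered the test through E15 alone, so nothing is read from that count. For the adult chains this step lay near the test's threshold. Alas2 fell by 1.33 ± 0.19 (adjusted p = 0.00356) and Hbb-b1 fell by 1.08 ± 0.29 (adjusted p = 0.0484), a call that was lost in 15 of 22 alternatives, with adjusted p from 0.0537 to 0.229, and kept in 7. Hba-a2 had a change of -1.16 ± 0.35 (adjusted p = 0.0677) and Beta-s of -0.78 (adjusted p = 0.143), and neither passed. Hba-a2 was called in 4 alternatives: at a pseudocount of 10 (adjusted p = 0.0472), after median-ratio rescaling (0.0481) and without P0 A (0.0212) or P0 B (0.0211). Without E18 B the call of Alas2 was lost too (adjusted p = 0.0545).

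From E18 to P0, Hba-a2, Hbb-b1 and Alas2 fell, 3 of the 7, while 45.1% of genes fell and 7.72% rose. The mean of Hba-a2 dropped 17.7-fold, that of Hbb-b1 17.9-fold and that of Alas2 18.7-fold. Because the P0 pools differed, the fold without P0 B was 30.7 for Hba-a2, 27.3 for Hbb-b1 and 31.8 for Alas2, and without P0 A it was 12.4, 13.3 and 13.2. On the log2(RPKM + 1) scale Hba-a2 fell by 4.26 ± 0.35 (limma, adjusted p = 0.000211) and Hbb-b1 fell by 4.21 (adjusted p = 7.24e-05), against a median of -0.41 over all genes. After median-ratio rescaling 16.3% of genes fell and 18.9% rose in this step. The other 4 transcripts were already at or below 0.703 RPKM at E18 and did not pass.

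From P0 to P3 the same 3 transcripts rose, when 0.354% of genes rose and 0.167% fell. Hba-a2 rose 6.24-fold in its mean, by 2.76 ± 0.35 on the log2(RPKM + 1) scale (limma, adjusted p = 0.00650), Hbb-b1 5.55-fold (adjusted p = 0.00446) and Alas2 4.93-fold (adjusted p = 0.0265). Beta-s rose 5.53-fold (adjusted p = 0.00469). Without P0 B the fold of Hba-a2 was 10.8 and without P0 A 4.38, and its log2 change ran from 2.12 to 3.40 over the alternatives. The calls rested on few pools: without P3 A none of the 3 was called, with adjusted p of 0.0779 for Hba-a2, 0.0540 for Hbb-b1 and 0.201 for Alas2, nor was Beta-s (0.0639), although Hba-a2 still changed by 2.67 ± 0.45. Without P3 B only Hbb-b1 was, and Alas2 was lost without either P0 pool or either E18 pool as well (adjusted p from 0.0625 to 0.179). The P3 pools exceeded the P0 pools in each of the 3 transcripts.

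From P3 to P6 Hba-a2 and Hbb-b1 fell again, 9.42-fold and 8.07-fold in their means (limma, adjusted p = 0.00260 and 0.00219), as 0.861% of genes fell and 0.215% rose. Alas2 went from 2.38 to 0.839 RPKM, a change of -0.89 ± 0.19 that did not pass (adjusted p = 0.0629). From P6 to P9 none of the 7 passed in limma, and none had an unadjusted p under 0.05 (lowest 0.144), with 0.0347% of genes falling and 0.0764% rising. The P9 mean of Hba-a2 was 1.52 times its P6 mean, with pools of 53.7 and 90.2 RPKM against 49.8 and 44.6 RPKM.

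**Figure D3:**
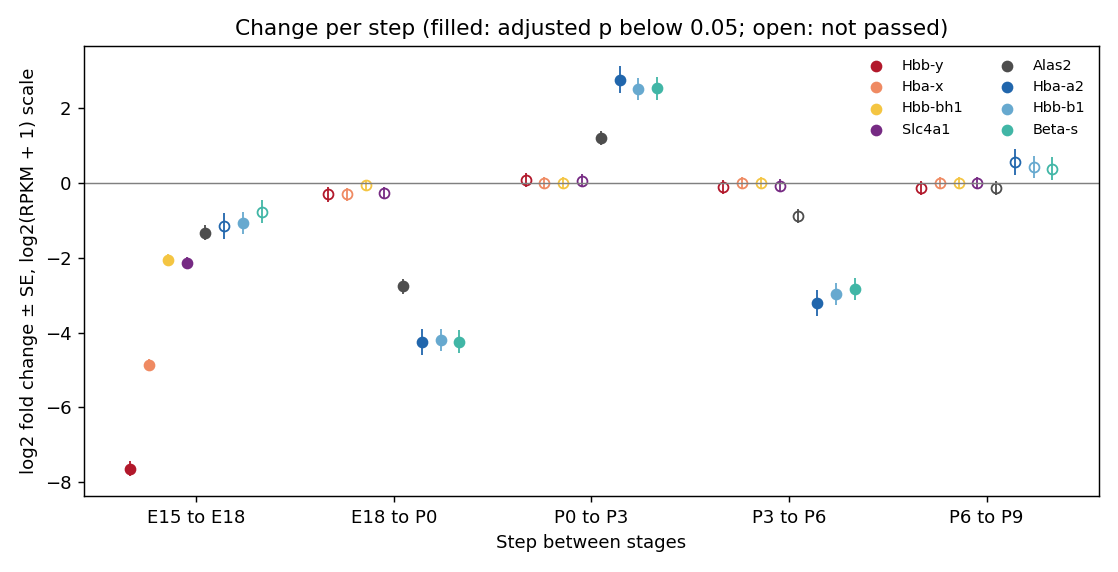
Change of each transcript in each step between consecutive stages, as the log2 fold change on the log2(RPKM + 1) scale with its standard error from limma; filled symbols had an adjusted p below 0.05 and open ones did not. Embryonic globins and Slc4a1 changed most from E15 to E18, while adult globins and Alas2 changed most from E18 to P0 and rose from P0 to P3. Embryonic globins and Slc4a1 entered the test through the E15 pools alone, so their filled symbols are given no weight.

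Markers of other cells in and around vessels moved beside these steps, and their part in the globin changes was not tested. The summed level of 12 endothelial genes, led by Egfl7 and Cldn5, was at 155% of its E15 mean by E18, then at 71.7% (P0), 62.3% (P3), 45.0% (P6) and 31.7% (P9). Its pools ran from 120.5 to 161.9 RPKM at E15 and from 41.4 to 48.0 RPKM at P9. The sum of 12 macrophage genes, led by C1qc and Lyz2, was at 181% by E18 and then at 45.0% (P0), 87.7% (P3), 13.8% (P6) and 11.3% (P9). From P0 to P3 none of the 12 endothelial and none of the 12 macrophage genes was called in limma, but 6 macrophage genes and 1 endothelial gene were higher at P3 at an unadjusted p under 0.05, which 10.8% of all genes met in either direction. The macrophage sum went from pools of 23.7 and 46.3 RPKM to 69.9 and 66.5 RPKM. From E15 to E18, 4 endothelial and 6 macrophage genes rose and none was called lower, where 5.48% of all genes rose and 3.67% fell. Lyz2 was the exception in direction among its list at an unadjusted p under 0.05, at 16.9 and 19.5 RPKM at E15 and 7.36 and 10.2 RPKM at E18 (adjusted p = 0.0909).

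White cell markers took a different course. The sum of 11 granulocyte and lymphocyte genes, led by S100a9 and S100a8, was at 84.5 and 166.4 RPKM at E15, 9.44 and 26.9 RPKM at E18 and between 1.07 and 3.23 RPKM after birth. All 6 of them that were tested were called lower from E15 to E18, beside 3.67% of all genes, and 4 of 6 were without E15 B. They include Mpo, which passed the low-value filter through the E15 pools alone. The sum of 9 platelet genes, led by Pf4 and Gp1bb, was at 192% of its E15 mean at E18, 73.6% at P0, 108% at P3 and 16.3% at P9. From E15 to E18 this sum mainly followed Pf4, which went from 11.96 and 6.34 RPKM to 27.2 and 26.6 RPKM. Of the 9 genes, 3 were tested in that step, and none was called higher and 1 lower. Itga2b went from 1.51 and 1.54 RPKM to 0.389 and 0.536 RPKM. It reached 1 RPKM in the E15 pools alone, so its test is given no weight. Markers of the retina, the tissue facing the lens in the eye, summed to 596.3 and 147.9 RPKM at E15. Their sum was 441.7 and 414.6 RPKM at E18, 57.3 and 43.4 RPKM at P0 and 140.1 and 313.6 RPKM at P9. From E18 to P0, 6 of 11 retinal genes were called lower and none higher, beside 45.1% of all genes that fell. The 11 lens markers summed to 28257 to 42733 RPKM at E15 and 36397 to 36725 RPKM at E18. Their sum was 59849 to 64288 RPKM at P0 and 72858 to 74414 RPKM at P9. All 11 were called higher from E18 to P0, beside 7.72% of all genes. The part of these tissues in the globin changes was not tested.

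Pools of 1 stage differed most in adult globins at P0. There pool B held 2.48 times the Hba-a2 of pool A, 2.05 times the Hbb-b1, 2.18 times the Beta-s and 2.41 times the Alas2. In the same pools the macrophage sum was 1.95 times and the endothelial sum 1.34 times as high in pool B. The E15 pools differed more than those of other stages over all genes, with a median absolute log2 difference of 0.35, against 0.115 to 0.153 at the other stages. For red cell transcripts at E15, pool A over pool B was 1.21 for Hba-a2, 1.03 for Hbb-y, 1.35 for Hba-x and 1.40 for Slc4a1, beside 3.74 for Rax, a retinal and anterior neural transcription factor.

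Small-RNA libraries gave another readout of red cells. MiR-451a and the arms of miR-144 come from 1 locus that GATA1 switches on in red cell precursors, and miR-486 is abundant in red cells and also in muscle. The mature sequences of RefSeq for GRCm38.p6 are given because their levels can be set beside the globins; capitals mark the seed, bases 2 to 8, and the seeds differ.
miR-451a (chr11:78073186-78073207, plus strand): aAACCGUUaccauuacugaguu
miR-144-5p (chr11:78073010-78073032, plus strand): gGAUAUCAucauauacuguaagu
miR-144-3p (chr11:78073047-78073066, plus strand): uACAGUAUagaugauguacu

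In the deposited signal, which the authors scaled, miR-451a stood at 549.5 and 1053 at E15 and 958.0 and 1017 at E18. Its P0 pools held 182.5 and 380.6, its P3 pools 169.5 and 490.1, its P6 pools 156.2 and 120.5 and its P9 pools 132.6 and 128.9. MiR-144-5p was at 87.6 and 113.4 at E15, and 113.6 and 128.6 at E18. Its P0 pools held 12.4 and 28.8, its P3 pools 48.4 and 56.7, its P6 pools 9.70 and 10.1 and its P9 pools 9.05 and 11.4. For miR-144-5p the P3 pools thus lay above all pools of P0, P6 and P9, as for the adult globins, while for miR-451a the P0 and P3 pools overlapped.

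Between E15 and P9 3 of the 5 erythroid miRNA arms fell and 1 rose, against 49.3% of 777 miRNAs that fell and 12% that rose. MiR-144-5p fell by 3.18 ± 0.32 on the log2(signal + 1) scale (limma, adjusted p = 3.12e-06) and miR-451a fell by 2.53 ± 0.44 (adjusted p = 0.000263). MiR-144-3p fell by 1.65 ± 0.54 (adjusted p = 0.0178), a call lost in 6 alternatives, after median-ratio rescaling (adjusted p = 0.226) and quantile normalization (0.408), with no low-value filter (0.0703) and without E15 B (0.254), P9 A (0.0649) or P9 B (0.0551). MiR-486-3p rose by 1.36 ± 0.27 (adjusted p = 0.000620), and miR-486-5p had a change of 0.35 ± 0.21 that did not pass (adjusted p = 0.171). After median-ratio rescaling miR-486-5p had a change of 1.26 and was called (adjusted p = 0.000132), as it was after quantile normalization (0.0128) and without P9 B (0.0255). None of the 5 was called from E15 to E18 (9.91% of miRNAs fell and 2.19% rose), where miR-144-3p alone had an unadjusted p under 0.05 (0.0403). Over all stages jointly the 5 arms were called, as were 64.6% of miRNAs.

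In the steps where adult globins changed, miR-144-5p fell from E18 to P0 (limma, adjusted p = 0.000561; 10.6% of miRNAs fell and 7.59% rose), rose by 1.42 ± 0.32 from P0 to P3 (adjusted p = 0.0102; 3.99% rose) and fell from P3 to P6 (adjusted p = 0.000420; 13.1% fell). MiR-451a fell from E18 to P0 (adjusted p = 0.0141) and had a change of 0.13 ± 0.44 from P0 to P3 (adjusted p = 0.853). The labels do not say whether small-RNA and mRNA libraries of the same letter came from the same animals, so pool ratios are not matched between them. At P0 the small-RNA pool B held 2.09 times the miR-451a and 2.32 times the miR-144-5p of pool A. The mRNA pool B held 2.48 times the Hba-a2. At P3 pool B held 2.89 times the miR-451a, whereas the Hba-a2 of pool A was 1.14 times that of pool B.

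**Figure D4:**
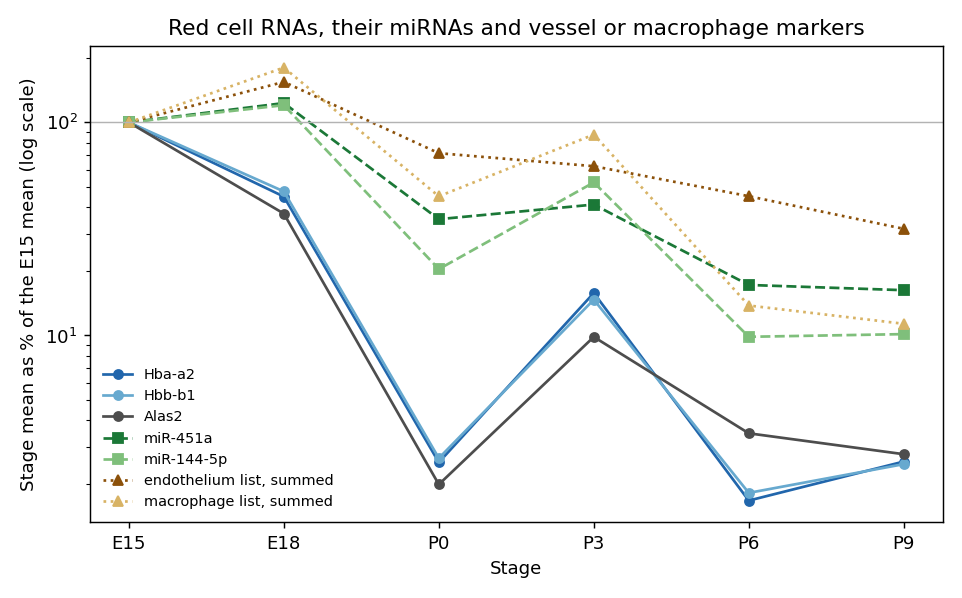
Stage mean of the 2 pools as a percent of the E15 mean, on a log axis, for adult globins and Alas2 (solid lines, RPKM), miR-451a and miR-144-5p (dashed lines, deposited signal) and the summed endothelial and macrophage marker lists (dotted lines, RPKM). At P0 Hba-a2 stood at 2.54% of its E15 mean and the macrophage sum at 45.0%; at P3 they stood at 15.8% and 87.7%.

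Heme synthesis genes other than Alas2 mostly fell on the deposited scale. Of 12 listed, 11 were tested between E15 and P9, where 55.4% of all genes fell and 8.65% rose. Of these 11, 9 fell, none rose and 2 missed the threshold. Their median was -0.83, beside -0.54 over all genes. Urod, an enzyme of the later steps of the pathway, fell by 1.16 ± 0.15 on the log2(RPKM + 1) scale (limma, adjusted p = 0.000109) and Slc25a37, the mitochondrial iron importer, fell by 1.13 ± 0.17. Uros fell by 0.93 ± 0.24 (adjusted p = 0.00674), a call lost after median-ratio rescaling (adjusted p = 0.313). After that rescaling 3 of the 11 fell and 1 rose, when 20.6% of all genes fell and 21.2% rose.

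Genes of the red cell membrane and cytoskeleton split in direction. Of 23 listed, 17 had a row and 11 were tested between E15 and P9, where 55.4% of all genes fell and 8.65% rose. Of these 11, 3 fell, 4 rose and 4 missed the threshold. Their median was -0.02, beside -0.54 over all genes. Gypc, glycophorin C, fell by 1.57 ± 0.19 (limma, adjusted p = 8.49e-05). Ank1, the ankyrin of the red cell skeleton, rose by 1.73 ± 0.18 (adjusted p = 3.20e-05), from 0.384 and 0.538 RPKM at E15 to 3.67 and 4.03 RPKM at P9. Ermap, an erythroid membrane protein, rose by 0.94 ± 0.26 (adjusted p = 0.00950). After median-ratio rescaling 6 rose and 2 fell, when 21.2% of all genes rose and 20.6% fell. Some defining red cell genes were too low in every library to be tested, but were highest at E15. Rhag was at 0.349 and 0.429 RPKM at E15 and at most 0.067 RPKM later. Epb4.2 was at 0.487 and 0.394 RPKM at E15 and at most 0.085 RPKM later.

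Transcription factors of the red cell lineage were mostly low or shared with other tissues. Of 13 listed, 7 were tested between E15 and P9, of which 6 fell and 1 missed the threshold, where 55.4% of all genes fell. Their median was -0.94, against -0.54 over all genes. It was -0.63 without E15 A, against -0.41 over all genes, and -1.51 without E15 B, against -0.67. Gata1 was at 0.489 and 0.138 RPKM at E15 and listed at 0 in all 10 later libraries, and Klf1 was at most 0.601 RPKM. Myb, a factor of dividing progenitors, fell by 2.99 ± 0.39 (limma, adjusted p = 0.000128), Lmo2, a partner of GATA1 in a shared complex, fell by 2.21 ± 0.20 (adjusted p = 1.56e-05), Bcl11a, which represses embryonic beta-like globins, fell by 1.16 ± 0.31 (adjusted p = 0.00793) and Ldb1 fell by 0.94 ± 0.17 (adjusted p = 0.000783). Myb differed widely between the E15 pools, at 57.0 and 21.2 RPKM, as did Bcl11a, at 3.17 and 0.868 RPKM, and the retinal sum was likewise higher in pool A, at 596.3 against 147.9 RPKM; its part in these changes was not tested. Median-ratio rescaling left 4 of 6 tested as fallen, beside 20.6% of all genes, and the call of Ldb1 was lost (adjusted p = 0.0665).

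Of 21 further genes known from red cells, 13 were tested between E15 and P9: 7 fell, 1 rose and 5 missed the threshold, and their median was -0.57. These shares are near those of all genes, of which 55.4% fell and 8.65% rose, with a median of -0.54. After median-ratio rescaling 2 of 11 fell and 5 rose, when 20.6% of all genes fell and 21.2% rose. Trim10, needed for terminal red cell maturation, was at 1.25 and 1.07 RPKM at E15 and 0.055 and 0.071 RPKM at E18, and was listed at 0 at P9. It reached 1 RPKM in the E15 pools alone, so its call is given no weight. Fam46c rose by 1.49 ± 0.23 (adjusted p = 0.000316), from 31.5 and 60.4 RPKM to 127.0 and 121.7 RPKM.

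Genes that clear heme and iron split in direction. Of 15 listed, 12 were tested between E15 and P9: 3 rose, 4 fell and 5 missed the threshold, beside 8.65% of all genes that rose and 55.4% that fell. Their median was -0.09, against -0.54 over all genes. It was -0.16 without E15 A, against -0.41 over all genes, and 0.14 without E15 B, against -0.67. After median-ratio rescaling 5 of 11 rose and 1 fell, when 21.2% of all genes rose and 20.6% fell. Hmox1, the enzyme that opens the heme ring, was at 20.0 and 28.2 RPKM at E15, 83.3 and 85.7 RPKM at E18, 274.6 and 259.6 RPKM at P0 and 436.3 and 406.2 RPKM at P3. It reached 600.6 and 538.1 RPKM at P9 and rose by 4.52 ± 0.14 on the log2(RPKM + 1) scale (limma, adjusted p = 1.08e-08). The E15, E18, P0 and P3 pools did not overlap. Blvrb, a biliverdin reductase, fell by 1.64 ± 0.41 (adjusted p = 0.00539). Hp, the hemoglobin-binding plasma protein, was at 1.26 and 1.63 RPKM at E15 and at most 0.254 RPKM later, and so entered the test through E15 alone. Trf, the iron carrier transferrin, fell by 1.09 ± 0.22 (adjusted p = 0.00187), a call lost after median-ratio rescaling (adjusted p = 0.0853). Of 2 further globin-family genes tested, Beta-s fell by 4.96 ± 0.30 (adjusted p = 2.31e-06) and Cygb, cytoglobin, which many non-blood cells make, rose by 0.68 ± 0.20 (adjusted p = 0.0143).

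Genes outside the set whose profiles were most like these were ranked by Pearson r on log2(RPKM + 1) over the 12 libraries among 13170 genes, as a description. The libraries of a stage share their level, so r mostly reflects the order of 6 stages. Closest to the mean profile of the embryonic globins were Krt5 (r = 0.992) and Krt15 (0.961), keratins of basal surface epithelium, and Mars (0.980), a transfer RNA synthetase. Krt5 was at 7.65 and 6.98 RPKM at E15 and at most 0.478 RPKM in any later library. Matn2, Mt2, Tnnc1, Iars and Eif5a followed with r from 0.938 to 0.948. Closest to the remaining members were Calr (0.986), a chaperone of the endoplasmic reticulum, Beta-s (0.986), AK207580, Skiv2l2, Copb1, Hspa5, Mest and Pdia4, the last of these at 0.976. Calr was at 287.5 and 270.3 RPKM at E15, 133.3 and 148.2 RPKM at P0, 183.3 and 183.4 RPKM at P3 and 144.2 and 126.5 RPKM at P6, so that its P3 pools also exceeded those of P0 and P6.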

How the data were processed

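Tables came singly, 1 for each library, with 30705 genes in those of mRNA. The authors deposited mRNA values with no named unit, taken here as RPKM because 67.8% to 77.0% of low values were whole multiples, within 0.1 read, of a step set by transcript length (20.0% by chance). How the authors made these RPKM is unstated in the sources used here. The step gave estimated depths of 20.1 (P9 B) to 43.7 (E18 B), in units of 1e6 reads. The authors' miRNA values are a scaled signal of unknown depth. Bowtie 0.12.8, SAMtools 0.1.18 and GRCm38/mm10 were named, per the submitters' processing notes; their roles and the handling of reads on several copies are unstated there.

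Tables were joined by symbol (Python 3.11.15, pandas 2.3.3, numpy 2.4.6, scipy 1.17.1, matplotlib 3.10.9). Features at 1 or more in at least 2 libraries were tested (14405 genes, 777 miRNAs) as log2(value + 1), so changes of low genes are understated, and fitted changes of genes at 0 depend on the pseudocount. A limma fit (3.58.1, R 4.3.3) with stage as 6 levels over 12 libraries, an intensity trend and 6 residual degrees of freedom gave tests adjusted over all features by the Benjamini-Hochberg method, called at an adjusted p below 0.05. It was tested on simulated data. Pools are separate animals, so p-values measure the spread between pools, taken for each gene as a common value over the 6 stages. The E15 pools differed more than the others (median absolute log2 difference 0.35, against 0.115 to 0.153). The common spread may therefore understate that at E15, and p-values of comparisons with E15 may be too small. Levels are mean ± SD of 2 pools.

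The genes and lists were chosen with earlier results of these data known. Named list genes are the up to 4 called between E15 and P9 with the largest change, some of which are not reported here; Gata1, Klf1, Rhag and Epb4.2 were added after their values were seen. Shares are of summed RPKM. Alternatives varied pseudocount, filter, scaling, trend, replicate block and libraries; list counts under other scalings and without either E15 pool were added after seeing the data. The numbers A and B did not pair the pools.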

Additional observations from a re-analysis of the deposited data

How the results depend on the processing

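Single transcripts and miRNAs were recomputed in 1149 alternatives. Of these, 1095 kept their side of the threshold, 41 lost a call, 13 gained one and no called change reversed. A change that was not called could switch sign and still count as kept, as for Hbb-y from E18 to P0 (-0.944 to 0.0542). The 1095 include postnatal steps of Hba-x and Hbb-bh1, which were listed at 0 throughout, so that a call had little room to change. They also include calls of transcripts that entered the test through E15 alone. The 1095 is therefore no measure of robustness. All 7 transcripts were called between E15 and P9, and jointly, in every alternative that tested them; the stricter filter tested and called 5. Counts that moved were E18 to P0, with 5 of 7 at a pseudocount of 0.1, E15 to E18, with 2 of 7 from the libraries of those stages alone, and P0 to P3, with 0 of 7 from those libraries alone; the cause was not tested. Leaving out 1 library gave 4 to 7 called from E15 to E18, 3 to 4 from E18 to P0, 0 to 3 from P0 to P3 (0 without P3 A, 1 without P3 B), 2 to 3 from P3 to P6, 0 from P6 to P9 and 3 to 4 of 5 miRNAs. It gave E15 shares of 10.01% to 10.4% (beta) and 1.17% to 1.30% (alpha), and E18 shares of 0.0216% to 0.0565% and 0.0182% to 0.0192%. With Hbb-b1 as the only adult beta row the beta share was 17.1% at E15 and 0.0772% at E18.

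Over all genes, 9229 were called between E15 and P9 (5934 after median-ratio rescaling, 6144 after quantile normalization, 5558 from these stages alone), 10687 jointly (6864 and 7040 after the 2 scalings), 7603 from E18 to P0 (4981 after median-ratio rescaling, 3934 to 9179 without 1 library), 1318 from E15 to E18 (4 from these stages alone, 177 to 5130 without 1 library), 75 from P0 to P3 (30 from these stages alone, 24 to 292 without 1 library), 155 from P3 to P6 (249 from these stages alone, 18 to 2209 without 1 library, 102 at a pseudocount of 10) and 16 from P6 to P9 (0 to 48 over the alternatives). Differences between same-lettered pools correlated from -0.247 to 0.206 over 15 pairs of stages, so the letters share only a name. With the replicate block, 9073 genes and 7 of the 7 transcripts were called between E15 and P9, Hbb-b1 lost its call from E15 to E18 (adjusted p = 0.0700), and no other call among the 7 changed. With 2 pools per stage, few estimated reads limit the embryonic globins after E18.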
